A study of Homo sapiens with 8 samples.

Results

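Thyroid hormone acts inside cells through a small set of proteins. Of these, 4 gene symbols were looked up in the deposited gene table: the deiodinase genes DIO2 and DIO3 and the receptor genes THRA and THRB. DIO2, THRA and THRB were analysed, which makes 3 of the 15811 genes of the table, and DIO3 was not analysed here. DIO2 was picked because it was higher in one of the groups compared, so its difference between groups is given as a description with no test. THRA and THRB entered by name, as the receptors of the hormone that the DIO2 product makes.

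Type 2 deiodinase, the product of DIO2, is a selenoenzyme of the endoplasmic reticulum that removes an iodine from the outer ring of the prohormone thyroxine (T4) and so produces the active hormone T3 within the cell. Type 3 deiodinase, the product of DIO3, inactivates both. THRA and THRB encode nuclear receptors that bind T3 and, as partners of retinoid X receptors on DNA, repress target genes with corepressors when unliganded and activate them with coactivators when T3 is bound.

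Total RNA was sequenced from the human embryonic stem cell line H9, which is long established, in 4 wild type (WT) libraries and 4 EXT1-/- libraries. EXT1 encodes a polymerase of heparan sulfate, and the EXT1-/- cells, made from H9 with CRISPR/Cas9, are described by the submitters as a line lacking this glycan. Both groups had been seeded in E8 medium with Y-27632, a ROCK inhibitor, and were collected after 28 h in RPMI-1640 with 6 µM CHIR-99021, a GSK3 inhibitor that activates β-catenin signalling and drives mesendoderm formation. No uninduced library was analysed here, and one knockout line stands for the genotype.

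The values are read counts that the authors normalised, and they summed to between 37737058 and 40017763 per library, so that 38.9 of them make 1 CPM (a count scaled to a fixed library total). EXT1 itself was lower in the EXT1-/- libraries, at 890 to 980 against 1464 to 1776 in WT. Mitochondrially encoded transcripts took 9.18 to 10.67% of WT replicate 1 and EXT1-/- replicates 1 and 4, here called the high set, and 5.30 to 5.43% of the other 5 libraries, the low set; the labels name no such sets. All 6 pluripotency markers were measured: 4 were lower in EXT1-/- cells, LIN28A did not pass, and SOX2 was higher (log2 0.94, adjusted p 0.0082, limma). Of 3 neuroectoderm markers only 1, NES, was measured, and it was higher (log2 0.29, adjusted p 0.0030, limma). Of 6 mesenchyme markers 3 were measured, and all 3 were lower. The 3 mesendoderm markers (TBXT, MIXL1 and EOMES) summed to 26975 to 30642 in WT and 9446 to 14958 in EXT1-/- libraries. Markers of cells in which thyroid hormone handling is usually studied were also looked up. Of these, 1 of 5 thyroid, 1 of 3 pituitary and hypothalamus, and 2 of 3 astrocyte genes were measured. The thyroid gene SLC5A5 was at 33 to 49 in all libraries and the pituitary gene POMC at 83 to 151. The astrocyte genes GFAP and SLC1A3 together were at 210 to 257 in WT and 694 to 935 in EXT1-/- libraries. Most of the last sum was SLC1A3, a glutamate transporter gene (181 to 222 and 661 to 894), and the part of these cell type differences in the results was not tested.

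The promoters of the measured genes are shown because they differ in kind. The DIO2 stretch is the 250 bases before one of its annotated starts; the receptor stretches are cut at the first annotated exonic base. They are from RefSeq on GRCh38.p14, in the direction of each gene, with capitals marking the cAMP response element TGACGTCA and the TATA box TATAAAA.
DIO2, chr14:80212179-80212428, minus strand: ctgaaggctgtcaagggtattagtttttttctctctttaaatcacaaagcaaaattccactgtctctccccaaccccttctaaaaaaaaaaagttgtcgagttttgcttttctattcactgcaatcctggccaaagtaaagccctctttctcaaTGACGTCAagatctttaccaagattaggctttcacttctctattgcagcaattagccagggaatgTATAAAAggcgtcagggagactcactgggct
THRA, chr17:40062715-40062809, plus strand: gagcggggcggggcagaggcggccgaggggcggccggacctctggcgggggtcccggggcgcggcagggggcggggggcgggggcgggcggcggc
THRB, chr3:24495757-24495958, minus strand: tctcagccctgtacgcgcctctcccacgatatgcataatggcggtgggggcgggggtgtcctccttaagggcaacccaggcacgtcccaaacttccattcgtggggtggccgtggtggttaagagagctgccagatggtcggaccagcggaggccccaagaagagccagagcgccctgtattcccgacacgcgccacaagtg

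In the DIO2 stretch the cAMP response element begins 96 bases and the TATA box 31 bases before the start. DIO2 is a classical cAMP-induced gene. Over 35116 promoter stretches of 250 bases in the same collection, searched on both strands, TGACGTCA was found in 1.65% and TATAAAA in 4.18%. The TCF/LEF motif CTTTGAT, found in 2.26%, and the GLI motif GACCACCCA, found in 0.199%, had no match in any of the DIO2, THRA or THRB stretches of that length. The G and C content of the DIO2 stretch was 40.8%, against a median of 58.0% over the collection, and the full 250-base stretches of THRA and THRB shown here in part had 87.2% and 65.2%. A separate start of DIO2 has a stretch with 46.4% and neither element, and a separate start of THRB one with 72.8% and TATAAAA 182 bases before the start. The table gives 1 value per gene, so it does not show which start was used.

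DIO2 (ENSG00000211448, chromosome 14, 80197527 to 80387757, minus strand of GRCh38) was near the low end of the table in WT cells and well expressed in EXT1-/- cells. WT replicates 1 to 4 had normalised read counts of 51, 57, 73 and 55, whereas EXT1-/- replicates 1 to 4 had 1141, 1039, 951 and 1104. Every EXT1-/- library was above every WT library, as for 16.3% of the genes of the table, and DIO2 was picked for its rise. Its lowest EXT1-/- value was many times its highest WT value. The means were 59.0 ± 9.66 and 1058.8 ± 83.3 (SD, n = 4 each), or 1.52 and 27.2 CPM, a ratio of 17.9. On the log2(value + 1) scale the difference was 4.15 ± 0.12 (SE), the 15th largest of the 15811 genes. The authors' deposited table gives 4.17. Fewer cells carrying a transcript and less of it per cell cannot be told apart in such bulk libraries.

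The difference in DIO2 was of like size in both library sets. It was 4.00 on the log2 scale in the low set (3 WT and 2 EXT1-/- libraries) and 4.43 in the high set, which has 1 WT library. The EXT1-/- libraries of the high set, at 1141 and 1104, were above those of the low set, at 1039 and 951, whereas the WT library of the high set had the lowest WT value. DIO2 would have entered the table on its WT values alone: each gene listed has at least 38 in its second-highest library, and the second-highest WT value of DIO2 was 57.

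**Figure D1:**
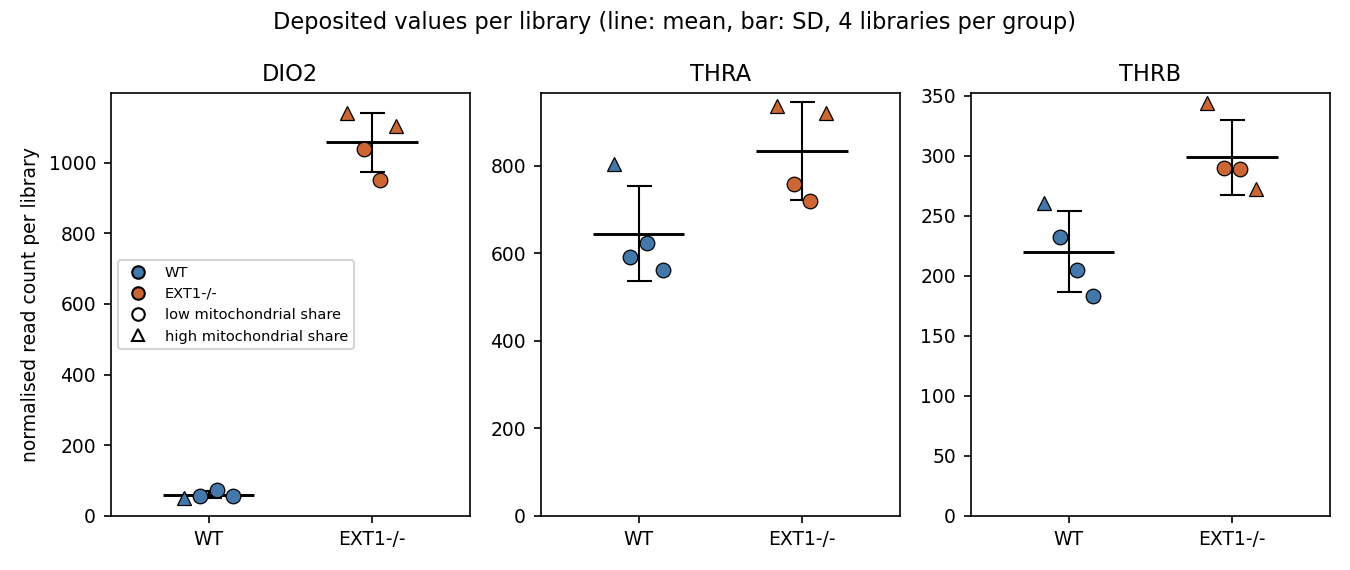
Normalised read count of DIO2, THRA and THRB in each library (vertical axes, linear and starting at 0), with WT in blue and EXT1-/- in orange, triangles for the high and circles for the low mitochondrial set, lines for means and bars for SD over 4 libraries. DIO2 goes from 51 to 73 in WT to 951 to 1141 in EXT1-/- libraries, the THRA groups overlap, and the lowest EXT1-/- value of THRB, 272, is just above the highest WT value, 261.

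Both receptor genes were expressed in both groups, with small differences between groups. THRA (ENSG00000126351, chromosome 17, 40058290 to 40093867, plus strand), which encodes the receptor of heart, gut and most of the brain, had normalised counts of 803, 591, 623 and 561 across the WT replicates and 937, 757, 720 and 920 across the EXT1-/- replicates, in order of number. The groups overlapped in that WT replicate 1, of the high set, lay above the EXT1-/- libraries of the low set; within the low set they did not overlap, as was so, in the same direction, for 32.4% of all genes. The means were 644.5 ± 109 and 833.5 ± 111 (SD, n = 4 each). The log2 difference of 0.38 ± 0.13 (SE; 95% interval 0.073 to 0.68) missed the threshold, with an adjusted p of 0.0603 (limma, Benjamini-Hochberg over all genes); an exact two-sided permutation test over the 70 divisions of the libraries gave p = 0.0857. The difference was 0.32 in the low set alone, where it passed (adjusted p 0.00777, limma), and 0.21 in the high set, which has 1 WT library. It also passed without WT replicate 1 (0.49, adjusted p 0.00975), without EXT1-/- replicate 3 (0.44, adjusted p 0.0455), and with the set as a term (0.28, adjusted p 0.00168). Of all genes 45.0% were called in the low set and 51.8% with the set as a term, against 32.0% in the main fit.

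THRB (ENSG00000151090, chromosome 3, 24117153 to 24495756, minus strand), which encodes the receptor of liver, retina and pituitary feedback, had 261, 232, 205 and 183 across the WT replicates and 344, 290, 289 and 272 across the EXT1-/- replicates. All EXT1-/- libraries were above all WT libraries, by a narrow margin, as were those of 16.3% of the genes of the table. The means were 220.2 ± 33.8 and 298.8 ± 31.3 (SD, n = 4 each). THRB rose by a log2 difference of 0.45 ± 0.12 (SE; 95% interval 0.16 to 0.73; adjusted p 0.0250, limma), and the exact permutation p was 0.0286, the smallest that 4 against 4 allows. The call was lost without WT replicate 3 (adjusted p 0.0693), WT replicate 4 (0.0622) or EXT1-/- replicate 1 (0.0672). The log2 difference of THRB was 0.49 in the low set and 0.23 in the high set, which has 1 WT library. The receptor that passes depends on the method: the authors' deposited table gives a false discovery rate of 0.0447 for THRA and 0.0636 for THRB, with log2 fold changes of 0.37 and 0.44. Of all genes, 15.2% were called higher by limma and 32.0% in either direction.

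Per length the order of the genes changed between groups. Divided by the kilobases of annotated exon, the WT level was 92.6 ± 15.6 for THRA, 20.1 ± 3.08 for THRB and 7.87 ± 1.29 for DIO2 (SD, n = 4), with no overlap between neighbours in that order. In EXT1-/- cells DIO2 was at 141.3 ± 11.1, THRA at 119.8 ± 15.9 and THRB at 27.2 ± 2.85 (SD, n = 4). There the libraries of DIO2 (126.9 to 152.3) and THRA (103.5 to 134.6) overlapped, although DIO2 was the higher in each of the 4 libraries, and both were above THRB. With the longest annotated transcript as the length, THRA (170.3) and DIO2 (166.3) changed places in EXT1-/- cells, again with overlap, and the WT order was the same. The 11 annotated transcripts of DIO2, 10 of THRA and 20 of THRB were not told apart, and these include THRA forms that differ in hormone binding.

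**Figure D2:**
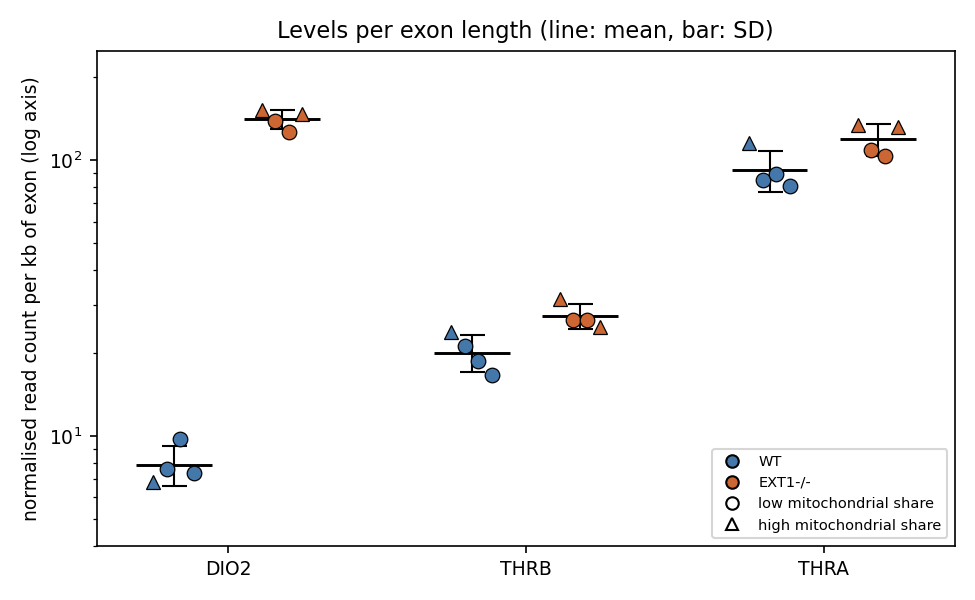
Normalised read count per kilobase of annotated exon for DIO2, THRB and THRA (log axis), with each library as a point, WT in blue, EXT1-/- in orange, triangles for the high mitochondrial set, lines for means and bars for SD. DIO2 is the lowest of the 3 genes in WT, around 7.87, and lies beside THRA in EXT1-/- cells.

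Few genes were measured around DIO2. Only 2 genes of the table lie within 1 Mb of it, measured between the lower ends of the genes. CEP128, a centriole gene, was at 522 to 651 in WT and 715 to 742 in EXT1-/- libraries and rose by 0.29 ± 0.08 (SE) on the log2 scale (adjusted p 0.0192, limma). GTF2A1, a subunit of general factor TFIIA, was at 3025 to 3859 and 3137 to 4055 and did not pass (0.0046 ± 0.11, SE; adjusted p 0.979). The call of CEP128 was lost without EXT1-/- replicate 1 (0.0502), and GTF2A1 was between -0.071 and 0.065 when a library was left out. Around THRA 3 of 28 genes rose and 2 fell, and around THRB 0 of 5 passed. By the same fit 15.2% of all genes were called higher and 16.8% lower. NR1D1, the circadian repressor gene on the opposite strand, shares 263 exonic bases with THRA. They are 3.78% of the exonic bases of THRA and 9.49% of those of NR1D1. NR1D1 had 110 to 204 in WT and 71 to 131 in EXT1-/- libraries (log2 difference -0.50, adjusted p 0.145, limma); it passed with the library set as a term (-0.67, adjusted p 0.0015) and in the low set (-0.64, adjusted p 0.0190). MED24, a Mediator subunit gene, also lies on the opposite strand at the start of THRA but shares 0 exonic bases with it; it was higher by 0.22 (adjusted p 0.0495, limma), with overlapping groups, and 7 of the 8 fits without a library, all but the one without WT replicate 1, lost that call (0.0523 to 0.117). The kit marks strand, but whether the counting used it is not given in the sources used here. DIO2 and THRB also overlap annotated opposite-strand genes (1 and 2), which were not analysed here.

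**Figure D3:**
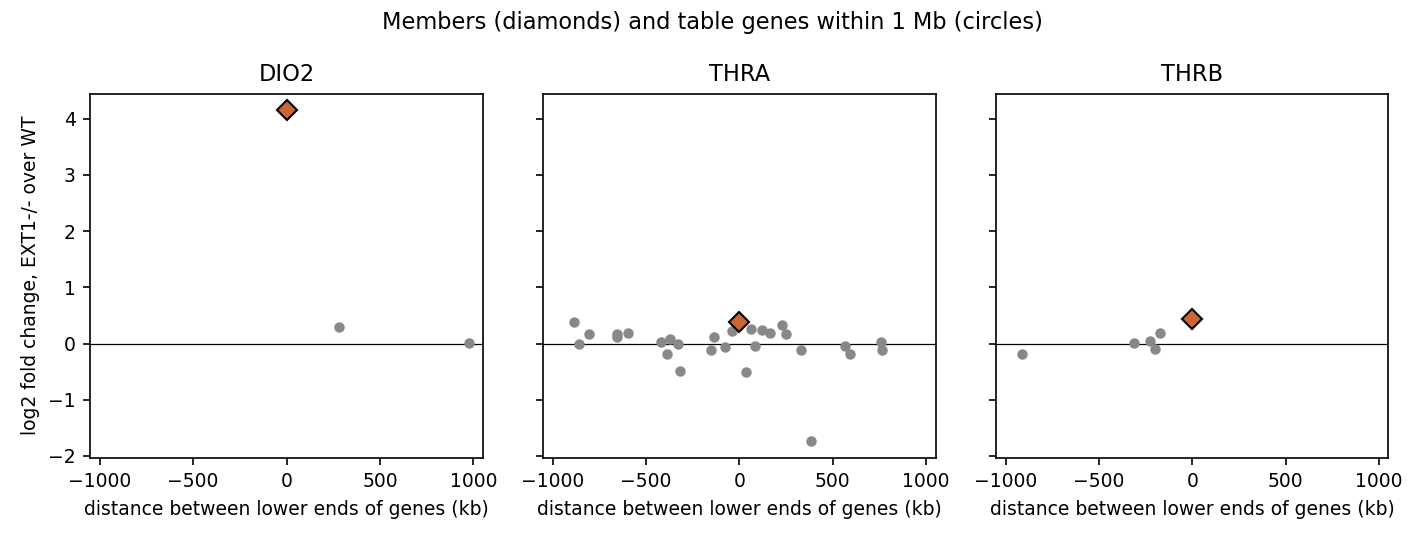
Log2 fold change of EXT1-/- over WT (vertical axis) against the distance in kilobases between the lower ends of genes, for DIO2, THRA and THRB (diamonds) and the genes of the table within 1 Mb (circles). DIO2 stands at 4.15 with its 2 neighbours between 0.0046 and 0.29.

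Over 13367 other protein-coding genes of at least 1 CPM in a group, the profiles most like that of DIO2 across the 8 libraries were those of CXCR4, the SDF-1 receptor gene (Pearson r = 0.999), and LIX1 (0.998). CXCR4 went from 72.2 to 518.8 and LIX1 from 103.2 to 2270.8 in the mean. These are descriptions over log2(value + 1) at 8 points in 2 groups, measured in the same libraries. For THRA the nearest were NUMA1 (0.992), SETD1A (0.992) and TMEM104 (0.991), and for THRB GFPT2 (0.981), FAM53C (0.978) and LGR4 (0.976). Within each group THRA, NUMA1, SETD1A and TMEM104 were highest in the libraries of the high set, and none of them passed by limma.

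The rest of the pathway was read from lists of 89 genes in all, 59 of which were measured besides DIO2, THRA and THRB. Of these 59, 13 were called higher and 8 lower, with a median log2 difference of 0.079, against 0.012 and 32.0% called over all genes. Of the 13, PPARGC1A and DLK1 stand in the table through their EXT1-/- values only. Such entry favours a difference without fixing it: SHBG, listed through its WT values only, was not called. Another 56 genes could have entered on either group alone, and of these 11 rose and 8 fell. Over all genes 15.2% were called higher and 16.8% lower. Once the model held a term for the library set, 21 of the 59 were higher and 16 lower, while of all genes 51.8% were called, 26.2% higher and 25.6% lower. In the low set alone the counts were 19 and 15, with 45.0% of all genes called, 20.9% higher and 24.1% lower. Of 44 genes followed through the alternatives, 15 passed with that term and not without it, among them CREBBP, GLI2, HIF1A, RCAN2 and ATP2A2. The count of falls was 3 without any one of WT replicates 2, 3 and 4, 4 without EXT1-/- replicate 4, and 5 without EXT1-/- replicate 1 or 2. The values below are by limma with Benjamini-Hochberg adjustment over all genes. Each list count below is to be read beside the shares of all genes, 15.2% higher and 16.8% lower. No list was tested as a set.

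The receptors' partners differed in direction by limma. In the authors' likelihood ratio test neither reached 0.05, with false discovery rates of 0.0545 for RXRA and 0.0981 for RXRB. RXRA, a retinoid X receptor gene, rose from 1287.5 ± 103 to 1544.2 ± 50.6 (SD, n = 4 each; log2 0.27, adjusted p 0.0165; 0.0501 without WT replicate 4). RXRB fell from 518.0 ± 56.1 to 408.2 ± 48.5 (-0.34, adjusted p 0.0410) with overlapping groups, a call lost in 6 of the 8 fits that leave out a library (up to 0.110): those without WT replicates 2, 3 and 4 or EXT1-/- replicates 1, 2 and 4.

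Of 8 coactivator genes that could have entered on either group, 3 rose and 0 fell (15.2% and 16.8% of all genes), with a median of 0.23. PPARGC1A, which encodes PGC-1α, an inducible coactivator of mitochondrial genes, is the ninth and is described with no test: it went from 27, 31, 29 and 32 in WT to 110, 117, 120 and 115 in EXT1-/- replicates 1 to 4. Its groups were far apart, with a log2 difference of 1.92, and its WT mean of 29.8 is below 1 CPM. NCOA1, encoding the p160 coactivator SRC-1, rose from 1432, 1009, 1036 and 1060 to 3203, 2608, 2627 and 3133, with no overlap. The log2 difference of NCOA1 was 1.36 ± 0.13 (SE; adjusted p 6.5e-05). The other p160 genes NCOA3 (0.56, adjusted p 0.00039) and NCOA2 (0.25, adjusted p 0.0070) rose less. CREBBP, an acetyltransferase gene, had 0.46 and did not pass (adjusted p 0.0650), but did without WT replicate 1 (0.0125) or EXT1-/- replicate 3 (0.0351). By the authors' likelihood ratio test CREBBP passed (false discovery rate 0.0120). MED1, the Mediator subunit that binds these receptors, did not pass by limma (0.16, adjusted p 0.211), but did without WT replicate 1 (0.0253) and in the low set (0.0201).

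Of 6 corepressor genes 0 rose and 1 fell, with a median of 0.0036. HDAC3, the deacetylase of the complex, fell by 0.16 on the log2 scale (adjusted p 0.0400), and 7 of the 8 fits without a library lost that call (up to 0.101), all but the one without EXT1-/- replicate 1. The authors' false discovery rate for HDAC3, by a likelihood ratio test, was 0.229. NCOR1, the scaffold of the complex, was at 5780 ± 952 and 6207 ± 613 (SD, n = 4 each; adjusted p 0.505).

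Transporters bring the hormone across the membrane, and 2 of 6 measured rose, against 15.2% of all genes. SLC16A10, the MCT10 carrier of T3 and aromatic amino acids, rose from 137, 159, 169 and 189 in WT to 282, 286, 317 and 235 in EXT1-/- replicates 1 to 4, with no overlap (log2 0.77 ± 0.13, SE; adjusted p 0.0018). SLC7A5, the LAT1 amino acid carrier, which also takes up thyroid hormones, rose from 18044 ± 811 to 28916 ± 4470 (SD, n = 4 each; 0.67, adjusted p 0.0010). SLC3A2, the heavy chain of LAT1, differed by 0.25 (adjusted p 0.147), SLC7A8 by -0.18 (0.522) and SLCO4A1 by -0.34 (0.167). With the library set as a term these passed: SLC3A2 at 0.32 (adjusted p 0.0029), SLC7A8 at -0.33 (7.1e-05) and SLCO4A1 at -0.42 (0.032). Of 8 binding and handling genes 2 were measured, CRYM, a T3-binding protein of the cytosol (0.0063, adjusted p 0.982), and SLC5A5, the iodide carrier of the thyroid (0.24, adjusted p 0.295), and neither passed.

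Of 13 target genes listed 5 were measured, and SHBG among them stands in the table through its WT values only. Of the other 4, 0 rose and 2 fell (15.2% and 16.8% of all genes), with a median of -0.45. KLF9 and HR, direct targets of the receptors in many tissues, were not analysed here. MBP, a myelin protein gene that T3 induces in oligodendrocytes, fell from 594.5 ± 42.8 to 302.5 ± 12.6 (SD, n = 4 each; -0.97, adjusted p 2.0e-05). ME1, the lipogenic malic enzyme, fell from 372.5 ± 87.8 to 220.0 ± 32.9 (-0.73, adjusted p 0.0193); its groups overlapped, as WT replicate 1, of the high set, had 246, and the call was lost without WT replicate 2, 3 or 4 or EXT1-/- replicate 1 (0.0521 to 0.0577). RCAN2 (-0.17, adjusted p 0.0580) did not pass, and SHBG had -0.31. ATP2A2, the SERCA2 calcium pump gene that T3 induces in heart, did not pass (0.079, adjusted p 0.297) but was higher with the set as a term (0.10, adjusted p 0.0222) and in the low set (0.13, adjusted p 0.0128). Whether the medium held thyroid hormone is not stated in the labels.

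Among regulators of the deiodinase genes, 3 of 8 rose and 1 fell, with a median of 0.37. Over all genes 15.2% rose and 16.8% fell. FOXO3, a forkhead activator of DIO2 in muscle, fell from 1212.5 ± 29.6 to 948.5 ± 33.6 (SD, n = 4 each; -0.35, adjusted p 0.0010). CREB1, the factor of the cAMP response element, was at 3522 ± 180 and 3608 ± 142 (adjusted p 0.668). GLI3 rose from 413 to 740 in WT to 1242 to 2029 in EXT1-/- libraries (1.5 ± 0.20, SE; adjusted p 0.00064). GLI1, a readout of Hedgehog signalling, rose from 222 to 339 to 352 to 463 (0.65 ± 0.15, SE; adjusted p 0.0090). GLI2, which activates DIO3 in skin, had 0.57 ± 0.22 and missed the threshold (adjusted p 0.0836; 0.0253 without WT replicate 1). By the authors' likelihood ratio test GLI2 passed (false discovery rate 0.0167). SMAD3, which carries TGF-β signals to DIO3, rose from 1730 ± 51.6 to 3224 ± 87.8 (0.90, adjusted p 3.6e-06), and HIF1A, its hypoxia activator, did not pass (0.18, adjusted p 0.203; 0.0286 without WT replicate 1). DIO3 itself gives no value against which to set these. Of the 6 listed genes of its imprinted domain, only DLK1 was measured: it went from 21, 30, 30 and 31 in WT to 72, 70, 58 and 84 in EXT1-/- replicates 1 to 4 (a log2 difference of 1.32). Its WT mean of 28.0 is below 1 CPM, and it is given with no test, like PPARGC1A.

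Genes that make or break down deiodinase protein mostly did not pass. Of 8 selenoprotein synthesis genes, needed because deiodinases carry selenocysteine, 0 rose and 2 fell (15.2% and 16.8% of all genes). PSTK, the kinase that prepares the selenocysteine transfer RNA, fell from 312.0 ± 24.7 to 206.2 ± 13.8 (SD, n = 4 each; -0.59, adjusted p 0.00099), and SECISBP2, which reads the selenocysteine signal, did not pass (-0.054, adjusted p 0.433). RPL30 fell by 0.21 on the log2 scale (adjusted p 0.0467), a call lost in all leave-out fits but the one without WT replicate 1 (0.0552 to 0.113). The authors' false discovery rate for RPL30, by a likelihood ratio test, was 0.238. It is a ribosomal protein gene with many processed copies. Of 11 genes of DIO2 protein turnover 2 rose and 1 fell: WSB1, the ligase adaptor that marks the enzyme for degradation (-0.30, adjusted p 0.0366), STUB1, a quality control ligase gene (0.37, adjusted p 0.0407), and UBE2J2, a conjugating enzyme gene (0.37, adjusted p 0.0473). Each was lost in several fits without a library: WSB1 without WT replicates 2, 3 and 4 and EXT1-/- replicates 1 and 4, STUB1 without any WT replicate or EXT1-/- replicate 1 or 4, and UBE2J2 without any WT replicate or EXT1-/- replicate 1. USP20, a deubiquitinase that rescues the enzyme, did not pass (0.11, adjusted p 0.222).

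**Figure D4:**
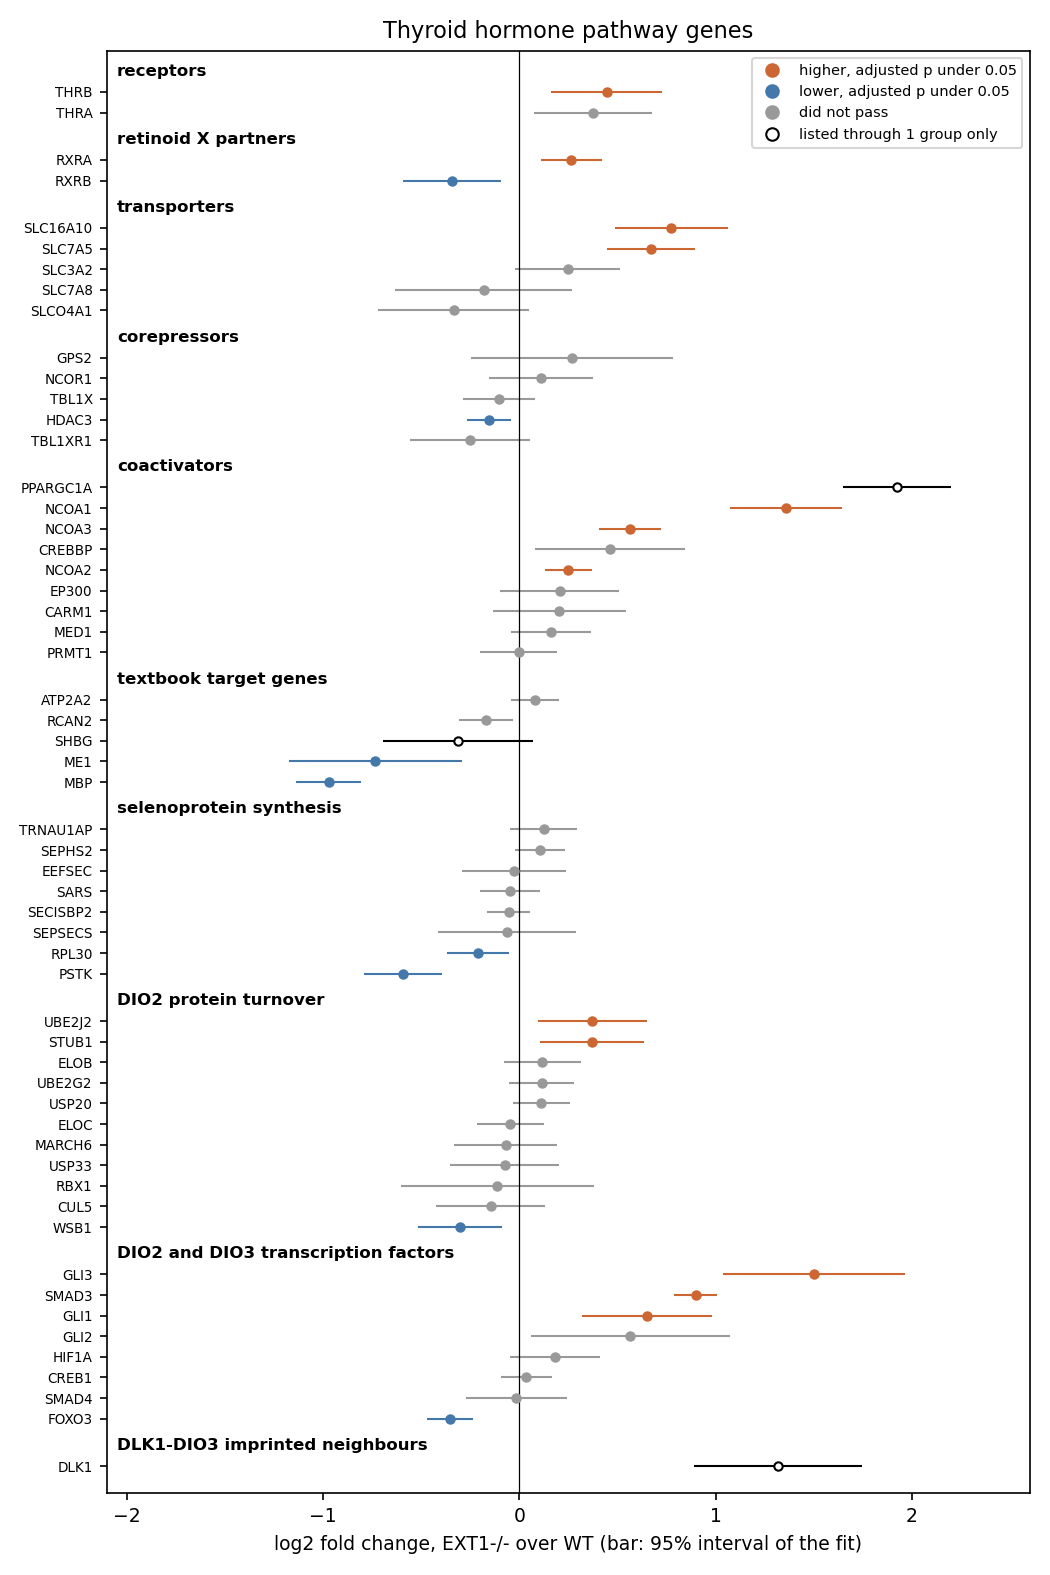
Log2 fold change of EXT1-/- over WT with its 95% interval (horizontal axis) for measured thyroid hormone pathway genes besides DIO2, grouped by role, in orange where higher and blue where lower at an adjusted p below 0.05 grey where not passed, and open black circles for PPARGC1A, DLK1 and SHBG, which are in the table through 1 group only. PPARGC1A (1.92), GLI3 (1.5), NCOA1 (1.36) and DLK1 (1.32) lie farthest to the right, and MBP (-0.97) and ME1 (-0.73) farthest to the left.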

How the data were processed

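Reads of 8 libraries were processed by the authors; the submitters' processing notes name STAR, RSEM, edgeR and GRCh38.p10. The authors deposited whole-number values per library, a normalised signal and not raw counts: effective library sizes by a trimmed mean of M values were 38528830 to 39063688. The authors also deposited per gene a p-value, a false discovery rate, a log2 fold change and the score of a likelihood ratio test. The table holds 0 columns of other samples. Genes listed have at least 38 in 2 libraries.

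Values were analysed as log2(value + 1) with limma 3.58.1 (R 4.3.3), in a model of genotype alone with a trend on mean level; adjustment was by Benjamini-Hochberg over 15811 genes, with a threshold of 0.05. No raw counts were found, so no count model was run. The fit was tested on simulated counts with 200 changed genes. The simulation held no library sets, so it does not show how the fit behaves with the sets seen here. Coordinates and exon lengths are from GENCODE 29 (15777 genes matched). Other steps used scipy 1.17.1, pandas 2.3.3, numpy 2.4.6 and matplotlib 3.10.9 under Python 3.11.15.

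Members, lists and tests were chosen with earlier results of these data known. Named genes were those past 1.5-fold and the threshold, up to 4 more per list by adjusted p, and a few fixed ones; some of these are not reported here. No 2 libraries of a group agreed within sampling noise (chi-square per degree of freedom 4.42 to 119.4). Whether replicates come from separate cultures is not stated, and p-values reflect only how these libraries vary, possibly for technical reasons. Other scalings, pseudocounts, filters, weights and terms were tried.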

Additional observations from a re-analysis of the deposited data

Results flagged for a closer look

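In 11 of 92 groups of 4 libraries examined, 1 library stood apart from the other 3 by a gap above Dixon's critical value; chance flags about 1 in 20 groups. DIO2, THRA and THRB had no such library. WT replicate 1, which is in the high mitochondrial set, was the library in 9 of the 11: it was high for EXT1 (1776, others 1464 to 1508), SLC7A8 (4683, others 2940 to 3137), NCOR1 (7203, others 5213 to 5403), TBL1X (5296, others 4481 to 4587), NCOA1 (1432, others 1009 to 1060), CREBBP (4418, others 2942 to 3094) and HIF1A (12233, others 9426 to 9805), and low for SLC3A2 (9524, others 12912 to 13527) and DLK1 (21, others 30 to 31). SLC7A5 was high in EXT1-/- replicate 4 (35596, others 26366 to 27225), and SLC5A5 was low in EXT1-/- replicate 3 (37, others 47 to 49).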

How the results depend on the processing

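The log2 difference of DIO2 stayed between 4.00 and 4.26 in every alternative run. THRA passed with equal totals (0.38, adjusted p 0.0361), with a replicate block (0.38, adjusted p 0.0357), with the library set as a term (0.28) and in the low set alone (0.32); leaving out a library gave 0.31 to 0.49 for THRA and 0.36 to 0.53 for THRB. Of all genes, 8195 were called with the set as a term (4142 higher, 4053 lower), against 5063 (2405 and 2658), and leaving out a library gave 3721 to 6041. Of the 59 listed genes, 21 rose and 16 fell with the set as a term, 15 fell in the low set, and 3 to 8 fell with a library left out. CRYM reversed with equal upper quartiles (-0.012), the set as a term (-0.020), the low set (-0.13) and when leaving out a library (-0.059 to 0.15), and CREB1 when leaving out a library (-0.00018 to 0.058). The cause was not tested. Of the 44 genes followed, 18 kept their call and direction in every alternative, and of the 21 called among them 13 did. Of 11 genes past 1.5-fold, 10, all but ME1, kept their call and direction in each alternative that gave them a value. PPARGC1A and DLK1 are counted in the 13 and in the 10. They entered the table through 1 group only, so their calls give no support here. These 2 genes had no value under the filter of 5 CPM in 4 libraries. GTF2A1 changed sign with equal upper quartiles (-0.014). The same replicate number did not mark a pair: deviations from group means correlated at 0.71, 0.29, 0.24 and -0.51 for numbers 1 to 4, and 2 of 8 libraries correlated best with their own number; the replicate block gave 4934 calls. Values near 38 are about 1 CPM, where small differences were not resolved.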
